A study of Mus musculus with 4 samples.

Results

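The genes described here are 10 genes of fat cell formation and lipid handling, taken by symbol from a deposited table of 21881 genes. They comprise 3 CCAAT/enhancer binding protein (C/EBP) factors (Cebpa, Cebpb and Cebpd), 2 fatty acid binding proteins (Fabp4 and Fabp5), the lipase gene Lpl, the fatty acid receptor gene Cd36 and 3 perilipins (Plin1, Plin2 and Plin4). Each was measured in 4 messenger RNA libraries, and 8 of the 10 had a mean of at least 1 FPKM (sequenced fragments scaled to transcript length and library size), the minimum for testing, which 11346 genes reached. Cd36 and Plin1 did not reach it. The libraries came from 2 immortalised mesenchymal stem cell lines of mouse bone marrow, called clone 6 and clone 12. Both lines are of the C57BL/6 strain and carry the Dicer f/f genotype with Dicer still intact, so every library shares that background. Each line was grown in alpha-MEM with 10% fetal bovine serum and infected with the retrovirus pMMP-puro, either without an insert (vector) or encoding Flag-HA-NR6A1. This gave 2 libraries per virus and 2 per clone, with 1 library for each combination. Each line descends from 1 cell, and a difference between clone 12 and clone 6 is therefore a difference between these 2 lines.

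Fat cells form from mesenchymal precursors through a cascade of transcription factors. Cebpb and Cebpd are induced first and lead to expression of Cebpa and of the nuclear receptor gene Pparg, which then keep each other active and turn on the genes of the mature fat cell. Lipoprotein lipase, the product of Lpl, frees fatty acids from circulating triglyceride, CD36 helps them across the membrane, fatty acid binding proteins carry them in the cytosol, and perilipins coat the droplets in which they are stored. NR6A1 belongs to the nuclear receptors without a known ligand, is best known from germ cells and early embryos, where it represses genes, and binds direct repeats of the hexamer AGGTCA.

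Promoter sequences are shown for 3 genes with a window that differed between the lines in opposite directions, Cebpa (higher in clone 6) and Cebpb and Plin2 (higher in clone 12). They are the 250 bases before the transcription start, 5′ to 3′ on the gene's strand, from RefSeq on build GRCm38.p6, which is later than the build mm9 of the expression values. Of the 10 genes, 6 had a window in that table (Cebpa, Cebpb, Plin1, Plin2, Plin4 and Cd36) and Fabp4, Fabp5, Lpl and Cebpd did not. Capitals mark every match, on either strand, to the nuclear receptor half-site AGGTCA, the cyclic AMP response half-site TGACG, the C/EBP core TTGCNNAA or the TATA box TATAAA.
Cebpa, chr7:35119043-35119292, plus strand: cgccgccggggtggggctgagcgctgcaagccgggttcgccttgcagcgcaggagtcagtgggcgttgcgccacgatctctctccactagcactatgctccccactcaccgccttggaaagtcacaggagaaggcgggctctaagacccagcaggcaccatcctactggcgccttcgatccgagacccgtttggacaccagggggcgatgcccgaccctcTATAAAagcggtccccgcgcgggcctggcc
Cebpb, chr2:167688665-167688914, plus strand: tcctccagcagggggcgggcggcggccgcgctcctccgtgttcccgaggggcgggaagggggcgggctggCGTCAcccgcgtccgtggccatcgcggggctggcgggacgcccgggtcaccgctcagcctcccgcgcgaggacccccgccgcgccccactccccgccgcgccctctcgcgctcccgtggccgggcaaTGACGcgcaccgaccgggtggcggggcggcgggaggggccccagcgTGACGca
Plin2, chr4:86670060-86670309, minus strand: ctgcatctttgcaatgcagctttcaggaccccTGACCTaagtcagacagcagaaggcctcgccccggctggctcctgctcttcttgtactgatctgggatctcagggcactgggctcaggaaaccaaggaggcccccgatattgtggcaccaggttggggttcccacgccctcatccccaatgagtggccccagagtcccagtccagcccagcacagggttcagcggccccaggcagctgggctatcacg

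The Cebpa window held a TATA box from 30 to 25 bases before the start, a match found in 12.4% of all 32851 windows of the same length. The Cebpb window held 3 cyclic AMP response half-sites, which begin 180, 53 and 7 bases before the start, and 17.8% of all windows held at least 1. Its GC content was 81.6%, against 66.4% for Cebpa, 61.6% for Plin2 and a median of 52.4% over all windows. The Plin2 window held 1 half-site AGGTCA, read on the opposite strand from 218 to 213 bases before the start. Of the windows not printed, Cd36 also held 1 half-site, and 14% of all windows held it. Plin1 held 2 C/EBP cores (9.56% of all windows) and Plin4 held none of these motifs. None of the 6 windows held the extended half-site TCAAGGTCA, which contains AGGTCA and occurred in 0.387% of all windows. Nor did any hold 2 half-sites in tandem, without a spacer (2 windows of the 32851) or with 1 base between them (11 windows). Such matches are a description of letters and show no binding.

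The retroviral gene was checked first: in clone 6 Nr6a1 stood at 4.18 FPKM with vector and 783 with NR6A1, and in clone 12 at 2.80 and 598. Depth inferred from the steps between low values was about 20.5 to 24.1 M reads per library. Mesenchymal markers were present, with 7 of 8 at a mean of at least 1 FPKM and a summed level of 3767 to 5599 FPKM, but Thy1 did not exceed 0.0297 FPKM. Of 8 mature fat cell markers none reached that mean. Adipoq, the adiponectin gene, peaked at 0.318 FPKM in the vector library of clone 6, Lep, Retn and Ucp1 were listed at 0 throughout, and the summed level of the 8 was 0.134 to 0.708 FPKM. The summed level of 6 endothelial markers was 0.0447 to 0.185 FPKM, with Gpihbp1 listed at 0. Among 7 macrophage markers Cd14 and Cd68 reached the mean, the sum was 8.13 to 10.7 FPKM, and Ptprc, Emr1 and Itgam were at 0.0234 FPKM or less. The 4 erythroid and megakaryocyte markers summed to 0.734 to 2.85 FPKM, nearly all of it from Itga2b, while Hbb-b1 was listed at 0. In such bulk libraries, fewer cells of a type and less RNA per cell cannot be told apart.

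Among the C/EBP factors, Cebpa was higher in clone 6 and Cebpb in clone 12. Cebpa, a factor of terminal fat cell differentiation, was at 39.9 FPKM with vector and 49.3 with NR6A1 in clone 6, and at 14.8 with vector and 8.66 with NR6A1 in clone 12. Both clone 6 libraries were above both clone 12 libraries, so the virus groups had to overlap. The difference of clone 12 against clone 6 was -1.88 ± 0.26 on the log2(FPKM + 1) scale (SE, limma adjusted p = 0.0269), or 3.68-fold higher in clone 6. This scale is used for every change below and understates the change of low genes.

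Cebpb, which acts early in the cascade, had the reverse order. It was at 61.6 and 57.9 FPKM with vector and NR6A1 in clone 6 and at 129 and 121 FPKM in clone 12. The clones did not overlap, and within each clone the viruses differed little. Clone 12 exceeded clone 6 by 1.05 ± 0.07 (SE, limma adjusted p = 0.0134), or 2.08-fold. FPKM is per length, so levels of both genes are set side by side here. Other differences between genes in how fully they are counted were not tested, here or in the ratios below. Cebpb exceeded Cebpa in all 4 libraries, and the ratio of Cebpa to Cebpb was 0.648 and 0.852 in clone 6 with vector and NR6A1, and 0.115 and 0.0715 in clone 12.

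Cebpd, induced early with Cebpb, was the lowest of the 3 factors. It was at 6.07 and 5.99 FPKM with vector and NR6A1 in clone 6 and at 3.59 and 5.98 FPKM in clone 12. Only the vector library of clone 12 stood below the rest. The difference between clones did not pass the threshold (-0.31 ± 0.19, limma adjusted p = 0.281).

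NR6A1 did not move the 3 factors in 1 direction. For Cebpa the NR6A1 libraries were higher than vector in clone 6 by 0.30 and lower in clone 12, a log2 change of -0.71, which gave -0.20 ± 0.26 over both (SE, limma adjusted p = 0.821). The changes of Cebpb were -0.088 in clone 6 and -0.090 in clone 12 (-0.09 ± 0.07, limma adjusted p = 0.719). Those of Cebpd were -0.018 and 0.61 (0.29 ± 0.19, limma adjusted p = 0.679). With 1 pair of libraries per clone, the difference between the clones' changes is the residual of the fit and was not tested. A difference at least as large as that of Cebpa was seen in 2.74% of all genes tested.

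**Figure D1:**
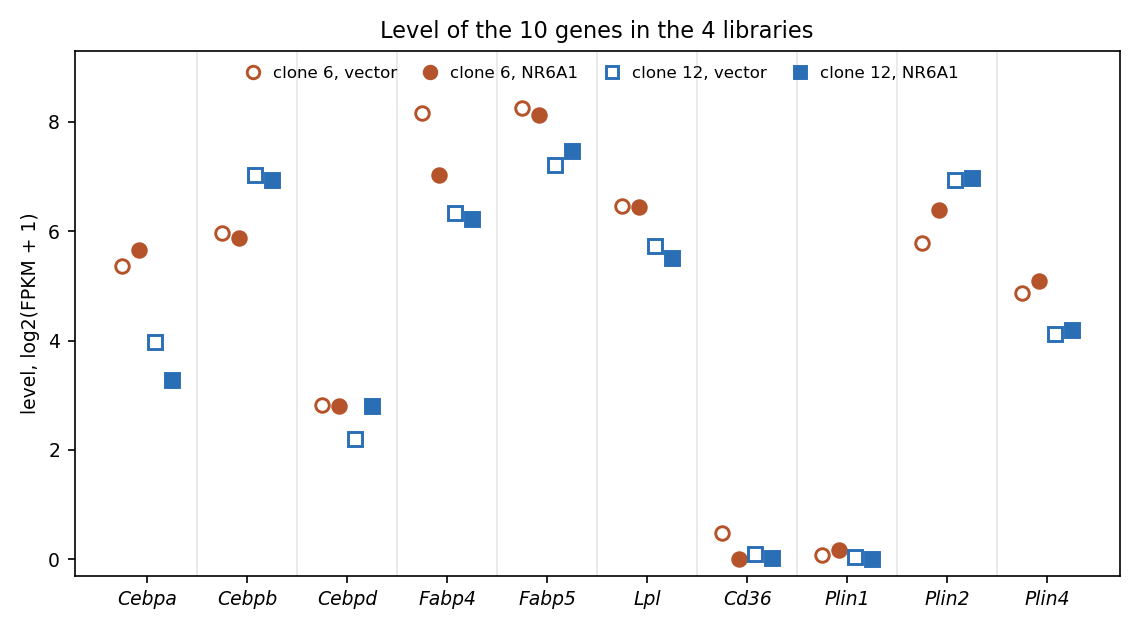
Level of the 10 genes as log2(FPKM + 1) on the vertical axis, in each of the 4 libraries. Circles are clone 6 and squares clone 12, open symbols vector and filled symbols NR6A1. Cebpa, Fabp4, Fabp5, Lpl and Plin4 are higher in clone 6, Cebpb and Plin2 are higher in clone 12, and Cd36 and Plin1 lie near 0.

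The fatty acid binding proteins had the highest mean FPKM of the 10 genes over the 4 libraries and were higher in clone 6, while in clone 12 Fabp4 was below Cebpb and Plin2. Fabp4, the binding protein known from fat cells and macrophages, was at 285 FPKM with vector and 129 with NR6A1 in clone 6, and at 79.4 and 73.3 FPKM in clone 12. The vector library of clone 6 stood far above the other three, and both clone 6 libraries were above both of clone 12. The difference of clone 12 against clone 6 was -1.32 ± 0.27 (SE, limma adjusted p = 0.0437), or 2.50-fold higher in clone 6.

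Fabp5, the more widely expressed relative, was at 305 and 277 FPKM with vector and NR6A1 in clone 6 and at 148 and 176 FPKM in clone 12. The clones again did not overlap (-0.85 ± 0.12, limma adjusted p = 0.0273). Fabp5 exceeded Fabp4 in all 4 libraries. The ratio of Fabp4 to Fabp5 was 0.933 in the vector library of clone 6, 0.537 in that of clone 12, and 0.466 and 0.416 in the NR6A1 libraries.

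Fabp4 had the largest mean change with NR6A1 among the 8 genes tested, and it did not pass the threshold. The log2 change was -1.13 in clone 6 and -0.11 in clone 12, or -0.62 ± 0.27 over both (SE, limma adjusted p = 0.637). A mean change at least that large was seen in 3.60% of genes tested, and a difference between the clones' changes at least as large as the 1.02 of Fabp4 in 2.68%. The 2 virus groups overlapped, as they must where the clones are apart. For Fabp5 the changes were -0.14 in clone 6 and 0.25 in clone 12 (0.06 ± 0.12, limma adjusted p = 0.896).

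Of the genes that bring fatty acids to the cell, Lpl was well expressed and Cd36 was near the level of single reads. Lpl was at 86.7 and 85.5 FPKM with vector and NR6A1 in clone 6 and at 51.8 and 44.3 FPKM in clone 12. Levels within a clone were close together and the clones were apart, with a difference of -0.83 ± 0.09 (SE, limma adjusted p = 0.0195). The changes with NR6A1 were -0.021 in clone 6 and -0.22 in clone 12 (-0.12 ± 0.09, limma adjusted p = 0.701).

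Cd36 was at 0.399 FPKM with vector in clone 6, listed at 0 with NR6A1 in clone 6, and at 0.0659 and 0.0147 FPKM with vector and NR6A1 in clone 12. On its longest coding transcript of 3399 bases these values stand for about 30.7, 0, 4.82 and 0.963 reads. The vector library of clone 6 was the only one with more than a few reads. Both vector libraries were above both NR6A1 libraries, which in clone 12 rests on about 4.82 against 0.963 reads. Among the genes tested, which leave out Cd36, 20.4% had virus groups apart. In a fit without the minimum, Cd36 differed by -0.28 ± 0.13 with NR6A1 (SE, limma adjusted p = 0.747).

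Among the perilipins, Plin2 and Plin4 were expressed and Plin1, the coat of the mature fat cell's droplets, was nearly absent. Plin1 was at 0.0568 and 0.121 FPKM with vector and NR6A1 in clone 6 and at 0.0258 and 0 FPKM in clone 12. That is about 3.57, 6.67, 1.54 and 0 reads on its longest coding transcript, so a difference was not detectable at this depth. Plin2, which coats droplets in most cell types, was at 54.1 and 82.9 FPKM with vector and NR6A1 in clone 6 and at 121 and 124 FPKM in clone 12. The clones did not overlap, and the vector library of clone 6 was the lowest. Clone 12 was higher by 0.87 ± 0.16 (SE, limma adjusted p = 0.0383).

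Plin4, a perilipin of small droplets, had the opposite order. It was at 28.3 and 32.8 FPKM with vector and NR6A1 in clone 6 and at 16.4 and 17.3 FPKM in clone 12 (-0.82 ± 0.08, limma adjusted p = 0.0192). The ratio of Plin2 to Plin4 was 1.91 and 2.53 in clone 6 and 7.40 and 7.19 in clone 12 with vector and NR6A1. Both genes were higher with NR6A1 in both clones without passing the threshold. The changes were 0.61 in clone 6 and 0.036 in clone 12 for Plin2 (0.32 ± 0.16, limma adjusted p = 0.646). They were 0.21 and 0.072 for Plin4 (0.14 ± 0.08, limma adjusted p = 0.656).

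For NR6A1 against vector, 0 of the 8 genes tested passed the limma threshold (adjusted p under 0.05), where 0.0353% of all genes tested did (0.0264% higher and 0.00881% lower). At an unadjusted p under 0.05 the count was also 0, against 8.48% of all genes. Cebpb, Fabp4 and Lpl were lower in both clones (3 of 8, against 29.4% of all genes), and Plin2 and Plin4 were higher in both (2 of 8, against 28.9%). Cebpa, Cebpd and Fabp5 differed in sign between the clones (3 of 8, against 41.7%). In none did both clones differ the same way by 1.5-fold or more, which 1.02% of all genes did downward and 0.432% upward. The virus groups overlapped for all 8, and 20.4% of all genes had groups apart. For all 8 the libraries of the clones were apart, which by itself makes the virus groups overlap. This count therefore says nothing about NR6A1. The median log2 change was -0.0166 over the 8 genes and 0.00098 over all genes tested. With 2 libraries against 2, an exact permutation test of a single gene that ignores the clones cannot give a p below 0.333. Shuffling within clones leaves fewer arrangements.

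**Figure D2:**
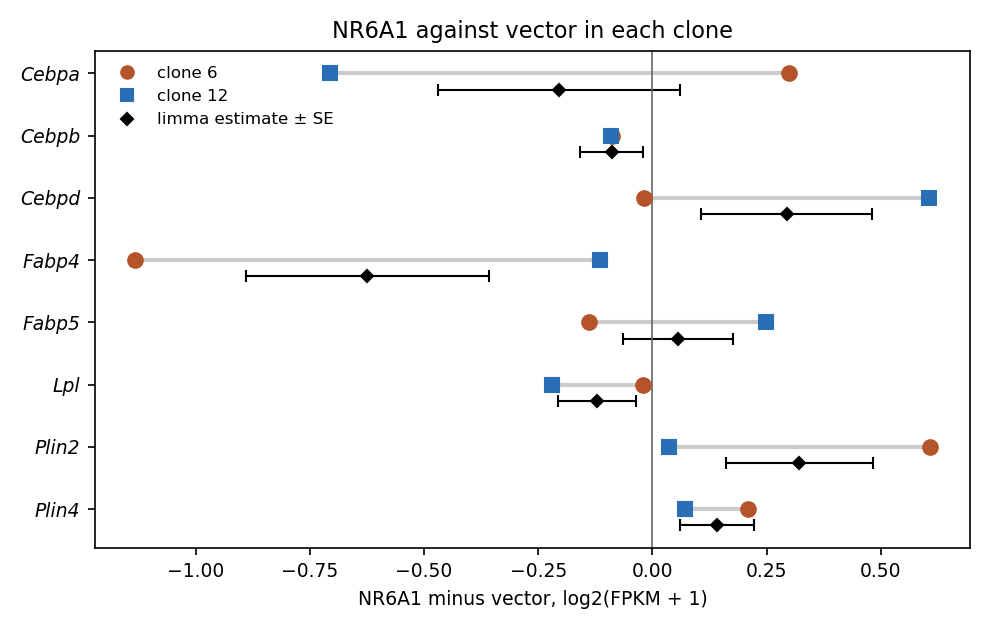
NR6A1 minus vector on the log2(FPKM + 1) scale for the 8 genes tested. Circles are clone 6, squares are clone 12, and diamonds with bars are the limma estimate over both clones ± SE. The clones lie on opposite sides of 0 for Cebpa, Cebpd and Fabp5, and Fabp4 is at -1.13 in clone 6 and -0.11 in clone 12.

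Between the lines, 7 of the 8 genes passed the threshold (limma adjusted p from 0.0134 to 0.0437), where 21.9% of all genes tested did. The members were chosen with earlier results of these data known, so this excess, like the sizes below, is a description only. Cebpa, Fabp4, Fabp5, Lpl and Plin4 were higher in clone 6, and 10.5% of all genes were called in that direction. Cebpb and Plin2 were higher in clone 12 (11.5% of all genes). Cebpd did not pass. At an unadjusted p under 0.05 the count was also 7, against 41.1% of all genes. By sign alone all 8 differed in the same direction with both viruses, as 79.8% of all genes did, and the libraries of clone 12 did not overlap those of clone 6, as in 68.0% of all genes. For Cebpd both rest on a gap of -0.0012 with NR6A1, at 5.99 and 5.98 FPKM, and it is better read as not separated. The median size of the difference was 0.86 over the 8 genes and 0.22 over all genes tested. The same fit gave a median size of 0.17 and 0.096 for the change with NR6A1.

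These p-values rest on libraries that share a line and measure how alike the lines differed with both viruses, not the spread between repeat cultures. They rest on 1 residual degree of freedom, so the count of 7 and the share over all genes may both hold more false calls than the threshold states. In 1 of 2 kinds of data simulated for NR6A1 against vector, limma made false calls well above the set rate. False calls between the lines were not simulated. With 3 libraries the count of 7 became 0 when either vector library or the NR6A1 library of clone 12 was left out. Leaving out the NR6A1 library of clone 6 gave 4. With no minimum on FPKM it was 0, a setting under which limma called no gene at all for this contrast. Without the virus as a block, Fabp4 (limma adjusted p = 0.0890) and Plin2 (0.0634) did not pass. Over 10 alternative settings with all 4 libraries, Fabp4 lost its call in 5, Plin2 in 3, Cebpa in 2 and each of the other 4 in 1. Direction was kept in every one of these fits.

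**Figure D3:**
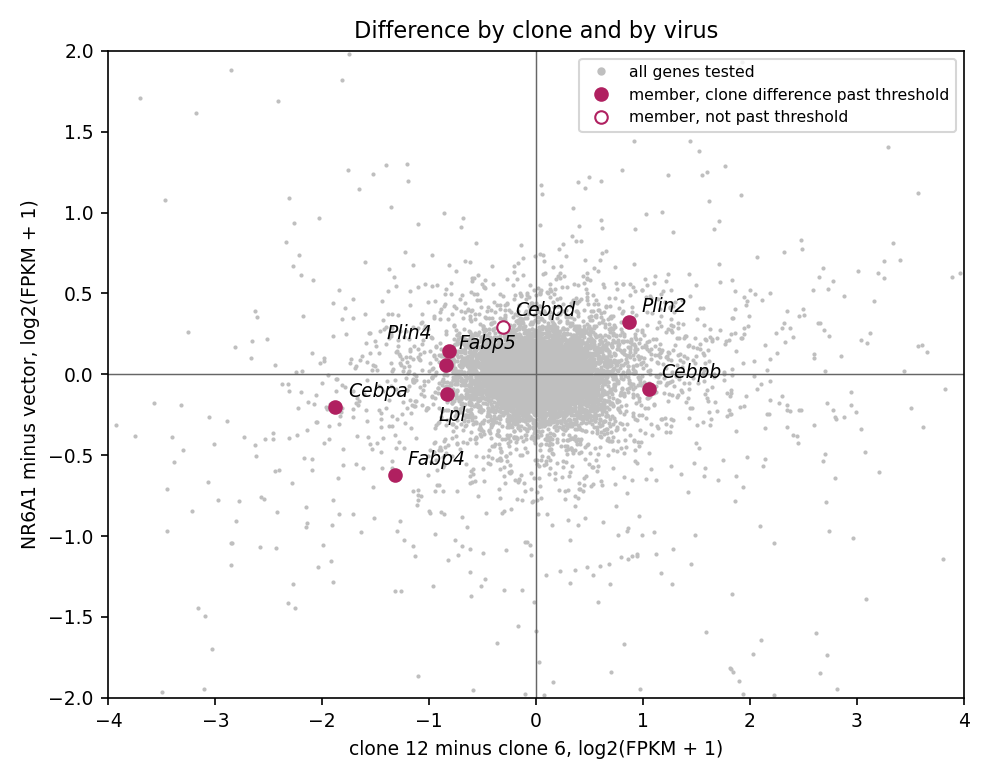
Clone 12 minus clone 6 (horizontal) against NR6A1 minus vector (vertical), both on the log2(FPKM + 1) scale from the same limma fit. Grey points are all genes tested, of which 101 lie outside the axes. Red circles are the members, filled where the clone difference passed the threshold. The filled circles lie between 0.82 and 1.88 from 0 along the horizontal axis and within 0.62 of 0 along the vertical axis.

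The gap between the lines with each virus is given as a description. Its difference between viruses is the residual of the fit, from 1 library per combination, and was not tested. With vector, clone 12 differed from clone 6 by -1.83 for Fabp4, -1.04 for Fabp5 and 1.15 for Plin2. With NR6A1 it differed by -0.81, -0.65 and 0.58. For Cebpa the gap was -1.38 with vector and -2.38 with NR6A1, for Lpl -0.73 and -0.93, and for Plin4 -0.75 and -0.89. For Cebpb it was 1.05 with either virus. A difference between gaps at least as large was seen in 2.68% of genes tested for Fabp4 and 2.74% for Cebpa. For Plin2 it was 7.25%, for Fabp5 14.0%, for Lpl 37.4% and for Plin4 52.6%.

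The 3 genes with the widest range over the libraries were Cebpa, Fabp4 and Plin2. The tested genes with the nearest pattern, by Euclidean distance of centred log2(FPKM + 1) values over 4 libraries, were Rasl11a (0.279), Ckb (0.389) and Tle2 (0.395) for Cebpa. For Fabp4 they were Bambi (0.0512), Als2cl (0.110) and Rora (0.237). For Plin2 they were Frat2 (0.0835), Pik3cd (0.0902) and D930015E06Rik (0.0941). Such a ranking over 4 libraries is a description only.

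Other genes of the pathway were read from 10 lists, of which 177 genes were in the table and 115 were tested. None of the 115 passed for NR6A1 against vector by limma. Of the 115, 26 had an unadjusted limma p under 0.05, a larger share than the 8.48% of all genes tested. The lists were chosen with earlier results of these data known, so this excess is a description only. Between the lines 39 passed, 21 higher and 18 lower in clone 12, which is 33.9% against 21.9% of all genes. That excess too is a description only. Some of the 39, named below, reached the minimum for testing only through the line where they were higher. With NR6A1, 40 of the 115 were lower in both clones and 35 higher, where 29.4% and 28.9% of all genes tested were. These shares of all genes are the background for the counts by direction in each list below.

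Of the other C/EBP family factors, Cebpg, Cebpz and Ddit3 were tested and Cebpe was listed at 0 in every library. Ddit3, the stress-induced CHOP that pairs with C/EBP factors and blocks their usual binding, was at 43.4 and 59.0 FPKM with vector and NR6A1 in clone 6 and at 279.9 and 195 FPKM in clone 12. It was higher in clone 12 by 2.18 ± 0.25 (SE, limma adjusted p = 0.0215). Cebpz was also higher there (0.42 ± 0.07). Cebpg, a partner without an activation domain, had 28.8 and 29.0 FPKM in the vector libraries and 24.0 and 26.3 in those with NR6A1. Its virus groups did not overlap (-0.20, limma adjusted p = 0.617), as in 20.4% of all genes tested.

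Of 28 adipogenic transcription regulators 21 were tested, 8 lower and 5 higher with NR6A1 in both clones, with a median change of -0.024. Pparg, the central regulator, is outside the rule for named genes and was picked once its values were known. Its level was 40.4 FPKM with vector and 31.8 FPKM with NR6A1 in clone 6, against 29.6 and 27.0 FPKM in clone 12. It passed for neither contrast (limma adjusted p = 0.608 for NR6A1 and 0.0699 between the lines). Between the lines 8 of the 21 passed (38.1%, against 21.9% of all genes). Ebf1 (-0.93), an early B-cell factor that acts in fat cell precursors, Nr1h3 (-1.01), the oxysterol receptor LXR alpha, Rxra (-0.48), the partner of PPAR gamma, and Zfp467 (-1.67) were lower in clone 12. Klf5 (1.28), Egr2 (0.96), Srebf1 (0.46) and Atf4 (0.39) were higher there. Srebf1 is the factor of fatty acid synthesis, and Atf4 the factor upstream of Ddit3 in the stress response. Zfp467 was at 3.70 and 1.62 FPKM in clone 6 and 0.0711 and 0.130 in clone 12. It reached the minimum for testing only through clone 6. Egr2, at 0.668 and 0.786 FPKM in clone 6 and 2.85 and 1.94 in clone 12, reached it only through clone 12. Rxrb, the third most abundant, was at 26.9 to 38.4 FPKM. Klf4 had the largest change in the same direction in both clones, at 24.0 and 24.3 FPKM in the vector libraries and 10.6 and 19.3 in those with NR6A1 (-0.71, limma adjusted p = 0.548).

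Genes that hold fat cell formation back were tested for 19 of 22 members, 8 lower and 5 higher with NR6A1 in both clones, with a median of -0.038. Wnt10b, a Wnt ligand that blocks fat cell formation, had 40.9 and 25.7 FPKM in the vector libraries and 22.4 and 13.0 in those with NR6A1 (-0.88, limma adjusted p = 0.142). Ctnnb1, which encodes beta-catenin, had 319 and 241 FPKM in the vector libraries and 237 and 219 in those with NR6A1. Id2 was at 34.9 and 43.6 against 29.4 and 29.2 FPKM, and Id3, also an inhibitor of helix-loop-helix factors, at 455 and 365 against 373 and 258 FPKM. Between the lines Wnt10b (-0.69), Foxo1 (-0.57) and Id3 (-0.42) were lower in clone 12 and Gata3 (1.31) was higher. These 4 of 19 are 21.1%, near the 21.9% of all genes. Gata3 was at 0.395 and 0.581 FPKM in clone 6 and 2.96 and 2.44 in clone 12. It reached the minimum for testing only through clone 12. Dlk1, a surface protein of fat cell precursors, did not exceed 0.00239 FPKM.

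Of 13 other fatty acid binding proteins and their retinoid-binding relatives, 4 were tested. Fabp3, the heart form, was at 3.32 and 4.29 FPKM in clone 6 and at 1.29 and 1.17 in clone 12 (-1.10), the same direction as Fabp4 and Fabp5. The retinoic acid binding proteins differed in opposite directions: Crabp1 was at 3.88 and 8.85 FPKM in clone 6 and 0.402 and 0.630 in clone 12 (-2.20). Crabp2, which passes retinoic acid to its receptor, was at 0.528 and 1.49 FPKM in clone 6 and 17.2 and 14.9 in clone 12 (3.12). These 3 of the 4 passed between the lines (75%, against 21.9% of all genes). Crabp1 reached the minimum for testing only through clone 6. Fabp1, Fabp2, Fabp6, Fabp9 and Fabp12 were listed at 0 in all 4 libraries.

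On lipid droplets, 10 of 16 further coat, fusion and membrane genes were tested, 3 lower and 4 higher with NR6A1 in both clones (median 0.029). Between the lines 5 of the 10 passed (50%, against 21.9% of all genes), 4 of them higher in clone 12 as Plin2 was. Cav1, the caveolin gene, had 12.8 and 30.5 FPKM in clone 6 with vector and NR6A1, and 127 and 139 FPKM in clone 12 (2.69). Ptrf, which encodes the caveolar coat protein cavin-1, Rab18, a GTPase found on droplets, and Hsd17b11 differed by 0.46, 0.37 and 0.73. The gene of the hypoxia-induced droplet protein HILPDA, listed under an older symbol, was lower in clone 12 (-0.49). Aup1 was at 71.9 to 95.3 FPKM and did not pass. The droplet fusion gene Cidec was at 0.0820 FPKM or less.

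In lipolysis, the release of fatty acids from stored triglyceride, 7 of 12 genes were tested, with 2 lower and 3 higher with NR6A1 in both clones. Pnpla2, the lipase ATGL that starts the process, was at 6.05 and 6.70 FPKM in clone 6 and 11.1 and 11.5 in clone 12 (0.74 ± 0.09, limma adjusted p = 0.0228). G0s2, its inhibitor, was at 6.71 and 8.54 FPKM in clone 6 and 0.203 and 0.227 in clone 12 (-2.82 ± 0.16, limma adjusted p = 0.0107). The ratio of Pnpla2 to G0s2 was therefore 0.901 and 0.785 in clone 6 and 54.9 and 50.5 in clone 12. G0s2 was below 1 FPKM in both clone 12 libraries and reached the minimum for testing only through clone 6. The size of the ratio in clone 12 is thus uncertain. Pnpla2 and G0s2 passed between the lines, 2 of 7 or 28.6%, against 21.9% of all genes. Abhd5, which activates ATGL, at 13.4 to 17.5 FPKM, and the lysosomal lipase gene Lipa, at 26.1 to 35.03 FPKM, did not.

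Fatty acid and triglyceride synthesis was tested for 21 of 26 genes, 8 lower and 6 higher with NR6A1 in both clones, with a median of 0.0048. The desaturase genes Scd2 and Scd1 were the most abundant with Fads1. Scd2 was at 365 and 279.6 FPKM with vector and NR6A1 in clone 6 and 557 and 453 in clone 12, and Scd1 at 91.8 and 79.5 against 131 and 104 FPKM. Both were higher in clone 12 (0.65 and 0.45). Agpat3 (-0.77) and Lpin1 (-0.87), the phosphatidate phosphatase lipin 1, were lower there. These 4 of 21 are 19.0%, no more than the 21.9% of all genes. Lpin1 also had the largest change in the same direction in both clones, at 11.5 and 4.60 FPKM in the vector libraries and 5.87 and 3.61 in those with NR6A1 (-0.57, limma adjusted p = 0.553). Fads1 was at 95.1 to 106 FPKM.

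Partners of lipoprotein lipase and lipoprotein receptors were tested for 12 of 22 genes, 2 lower and 6 higher with NR6A1 in both clones (median 0.063). Angptl4, which inactivates the lipase, had 40.4 and 66.8 FPKM in the vector libraries and 29.2 and 45.7 in those with NR6A1 in clone 6 and clone 12 (-0.50, limma adjusted p = 0.262). It was higher in clone 12 (0.67), the line with less Lpl, as was the endothelial lipase gene Lipg (1.32). Lrp1 (-0.86), a receptor for remnant lipoproteins at 73.9 to 181 FPKM, Furin (-0.62), which cleaves the lipase, and Sort1 (-1.21) were lower there. Between the lines 6 of the 12 passed (50%, against 21.9% of all genes), these 5 among them. Lipg was at 0.137 and 0.738 FPKM in clone 6 and 2.57 and 2.47 in clone 12. Sort1 was at 3.23 and 2.23 FPKM in clone 6 and 0.4975 and 0.714 in clone 12. Each reached the minimum for testing only through the line where it was higher. Lmf2 was at 59.3 to 68.1 FPKM, and Gpihbp1, the anchor of the lipase on capillary walls, was listed at 0.

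Fatty acid uptake and activation was tested for 12 of 18 genes, 4 lower and 4 higher with NR6A1 in both clones (median -0.033). Acsl1, an acyl-CoA synthetase, had 16.9 and 19.5 FPKM in the vector libraries and 11.2 and 13.1 in those with NR6A1 (-0.55, limma adjusted p = 0.254). Between the lines the transport protein gene Slc27a4 (-0.61) was lower and Acsl4 (0.56) higher in clone 12. These 2 of 12 are 16.7%, against 21.9% of all genes. Dbi, the acyl-CoA binding protein, was at 220.04 to 266 FPKM, Got2 at 119 to 134 and Scarb1 at 76.0 to 91.4.

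Of 16 adipokines and hormones in the table, 6 were tested, 3 lower and 1 higher with NR6A1 in both clones. Apln, the apelin gene, had 72.2 and 43.0 FPKM in the vector libraries of the 2 clones and 46.3 and 30.6 in those with NR6A1 (-0.55, limma adjusted p = 0.262). Between the lines 3 of the 6 passed (50%, against 21.9% of all genes). Among them were Nampt (0.69), higher in clone 12, and Apln (-0.66), lower there.

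**Figure D4:**
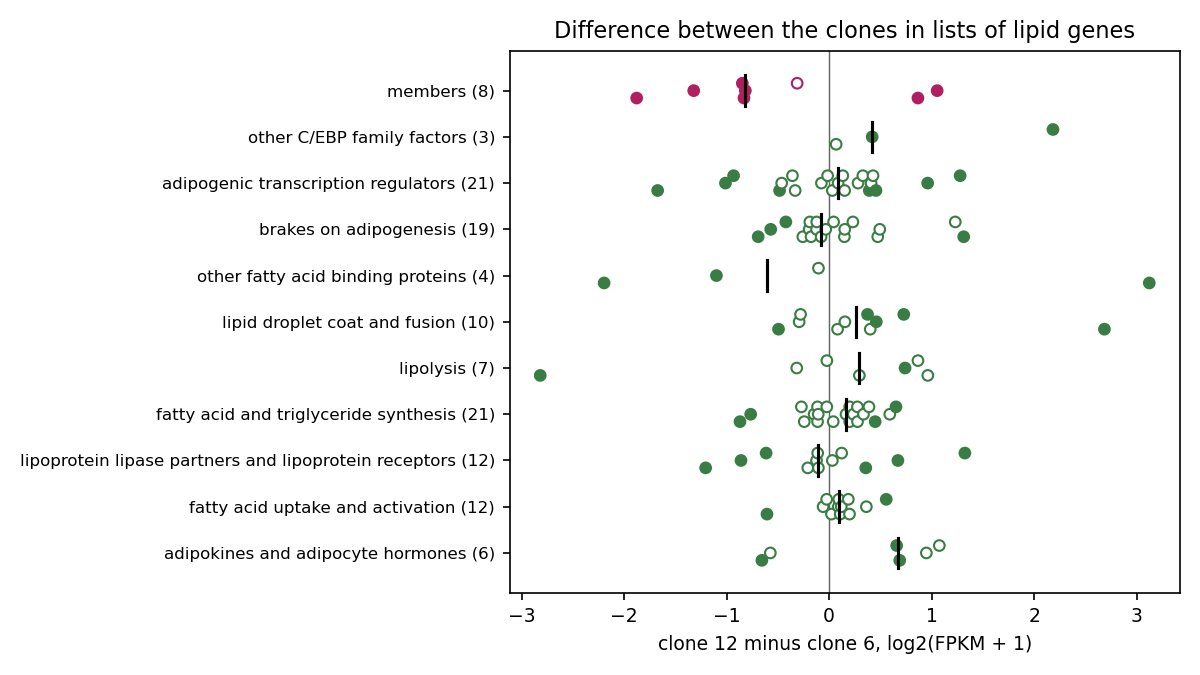
Clone 12 minus clone 6 on the log2(FPKM + 1) scale for the 8 members and for the tested genes of 10 lists, with their number in parentheses. Each circle is a gene, filled where limma's adjusted p was under 0.05, and bars mark list medians. The members' median is -0.82, and 7 of the 8 are filled. Members and lists were chosen with earlier results of these data known.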

How the data were processed

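Polyadenylated RNA of 4 libraries was sequenced by standard Illumina protocols, per the labels. The values used are the FPKM deposited by the authors, 1 per gene and library, made with TopHat 1.2.0 and Cufflinks 1.0.3 on mm9, per the submitters' processing notes. Annotation and strand: not given in the sources used here. Reads of overlapping genes may be shared.

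Values were analysed as log2(FPKM + 1) where a gene's mean reached 1 FPKM. limma 3.58.1 in R 4.3.3 was fitted to all 4 libraries with virus and clone as terms and a mean-variance trend, two-sided, with Benjamini-Hochberg adjustment over the 11346 genes at 0.05. It had 1 residual and 2.9 prior degrees of freedom and was tested on data simulated for NR6A1 against vector only. With variances drawn from the fitted prior, the share of false calls was slightly above the set rate. With each gene's shrunken variance taken as its true one, that share was several times the set rate. Clone is a block because each line received both viruses, per the labels' protocols. Across tested genes, the clone difference seen with vector correlated with that seen with NR6A1 (r = 0.628, and 0.873 once short RNA genes were left out), though genes are not independent replicates.

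Depth was inferred from 4033 genes with 1 coding transcript of at least 1500 bases in GENCODE: 47.0% to 48.6% of low values (under 10 reads) came out whole at a tolerance of 0.1 read, where chance gives 20%. The depths are estimates, could be off by a whole multiple, and served no test.

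The text names all members, the list genes past the threshold for either contrast, the 3 most abundant of each list, the 1 with the largest change of the same direction in both clones at a mean of at least 5 FPKM, and the 3 nearest patterns for 3 members. Of these, 2 list genes are not reported here. Members and lists were chosen with earlier results of these data known. The labels name no repeat cultures. Alternatives varied the pseudocount, filter, scaling, variance prior, gene set, block, libraries and threshold.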

Additional observations from a re-analysis of the deposited data

Results flagged for a closer look

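For 3 of the 8 members tested the change with NR6A1 had opposite signs in the 2 clones. With 1 pair of libraries per clone this difference was not tested. The change in clone 12 minus that in clone 6 was -1.01 for Cebpa, 0.62 for Cebpd and 0.39 for Fabp5, on the log2(FPKM + 1) scale. Plin1, which was below the minimum for testing, also differed in sign (-0.12), at 6.67 reads or fewer per library. Of all genes tested, 41.7% had no common direction.

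The same held, also untested, for 13 of the list genes named by rule. The difference was negative for Ddit3 (-0.96), Crabp2 (-0.90), Lipg (-0.65), Egr2 (-0.49), Gata3 (-0.38), Fabp3 (-0.37), Rxrb (-0.34), Hsd17b11 (-0.23), Cebpz (-0.096) and Ptrf (-0.054). It was positive for Zfp467 (0.92), Sort1 (0.58) and Agpat3 (0.14). It was also seen, again untested, in 4 of the genes with nearest patterns, Als2cl (1.14), Rora (1.23), Frat2 (-0.55) and Pik3cd (-0.52), and in Sox9 (-1.21) and Foxc2 (-1.03), which were picked once their values were known.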

How the results depend on the processing

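Over the 10 alternatives with 4 libraries, each of the 8 members kept its direction in both contrasts, and none passed for NR6A1 against vector. Without the clone as a replicate block 4 genes passed for NR6A1, as with it, and 1993 passed between the lines without the virus block, 5 of them members. The count for NR6A1 was 7 with a pseudocount of 5, 2 with no filter, 38 with a robust prior, 51 without short RNA genes, 25 at a false discovery rate of 0.1, and 0 with any 1 library left out. Of the listed genes 2 then passed under the robust prior and 2 without short RNA genes, and 0 otherwise. Between the lines the count of 2490 became 0 with no filter, 1581 with no trend, 4163 at a rate of 0.1, and 41 to 889 with 1 library left out. The count of members was then 0 to 4, and 0 with no filter. Of the 3 members lower in both clones, 0 were lower by at least 1.5-fold in both. With 1 library left out and no block, the change with NR6A1 turned sign for every member tested. It ran from -1.39 to 0.99 for Cebpa, -0.62 to 0.44 for Cebpb, -0.018 to 0.61 for Cebpd, -1.54 to 0.29 for Fabp4, -0.46 to 0.58 for Fabp5, -0.59 to 0.34 for Lpl, -0.25 to 0.90 for Plin2 and -0.30 to 0.58 for Plin4. Such fits set 2 lines against 1, so the gap between the lines enters the value. At the inferred depth, values of Cd36 and Plin1 stand for at most about 30.7 reads.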

Other observations

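Of the listed genes that hold fat cell formation back, 3 that were picked once their values were known were lowest in the vector library of clone 6. Gata3, Klf2 and Nr2f2 were also lowest there, and the other tested genes of that list were lowest in another library. The share over all genes was not worked out, so this is a description only. Twist2, a repressor of the basic helix-loop-helix family, was at 10.3 FPKM with vector and 23.9 with NR6A1 in clone 6, and at 37.0 and 39.7 in clone 12. Sox9, a factor of cartilage formation, was at 2.42 and 6.37 FPKM in clone 6 and 6.23 and 5.73 in clone 12. Foxc2 was at 4.47 and 8.97 against 9.99 and 8.84 FPKM. None of these 3 passed for NR6A1 against vector (limma adjusted p from 0.641 to 0.719). Klf2, a repressor of Pparg, was also picked once its values were known. It had 4.12 and 4.17 FPKM with vector in clone 6 and clone 12, and 6.20 and 6.57 with NR6A1 (0.52, limma adjusted p = 0.364). Its virus groups did not overlap, as in 20.4% of all genes tested. Lipe, which encodes hormone-sensitive lipase, was also picked once its values were known. It was at 1.90 FPKM with vector and 0.00416 with NR6A1 in clone 6. In clone 12 it was at 2.60 and 2.07 FPKM (-0.88 over both clones, limma adjusted p = 0.637). The lowest value comes from a single library, and its level in reads was not estimated.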
